A study of Mus musculus with 16 samples.

Results

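Chemokines, cytokines and target genes of the transcription factor NF-kappaB were followed in mouse cells that lack an actin gene or an integrin activator. The 42 genes were picked by symbol and function, with no threshold on a measured value but with earlier results of these data known, out of 26653 different gene identifiers in 3 tables. The table of embryonic fibroblasts (MEFs) held 35 of them, that of kidney fibroblasts (MKFs) 32 and that of embryonic stem cells (ESCs) 18. Every one of these passed the filter on low values (a mean of at least 1 over the libraries of a table). By table, 14 genes had values in 3 tables, 18 in 2 and 7 in 1, while Cxcl9, Il1b and Csf3 were not analysed here.

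The series addressed transcriptional adaptation, in which a degraded mutant messenger RNA alters the expression of other genes, with 16 RNA sequencing libraries in 8 groups of 2. The MEF groups were Actg1 K.O. (KO, with the gene of gamma-actin disrupted), Actg1 full locus deletion (the whole gene removed) and wild type. The ESC groups were Actb K.O., Actb full locus deletion (beta-actin) and wild type. The MKF groups were Kindlin-2 K.O. and Kindlin-2 floxed cells, in which recombination sites flank the part of the gene to be removed. No group received a cytokine or another stimulus by the labels, and the labels say neither whether a group is 1 clone nor whether its libraries came from separate cultures. The p-values therefore measure the spread between libraries, which may be technical.

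Chemokines are small secreted proteins that draw leukocytes along a gradient, and fibroblasts make many of them when tissue is injured or infected. NF-kappaB is a family of paired subunits held in the cytoplasm by inhibitor proteins. Signals from interleukin-1, tumour necrosis factor or Toll-like receptors free the subunits, which bind short motifs near genes of chemokines, cytokines, adhesion receptors and acute phase proteins, and which also switch on their own inhibitors.

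The stretch just before the start of 6 members that hold the NF-kappaB motif GGGANTTTCC, and of C3, which does not, is given here 5′ to 3′ on the strand of the gene, because these genes are known targets of NF-kappaB and differed widely in response. Capitals mark the motif, which reads on the opposite strand in Nfkbia and Csf1.
Cxcl1: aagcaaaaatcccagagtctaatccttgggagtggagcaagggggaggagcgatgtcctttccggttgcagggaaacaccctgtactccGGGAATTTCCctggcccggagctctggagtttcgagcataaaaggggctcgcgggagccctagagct
Cxcl2: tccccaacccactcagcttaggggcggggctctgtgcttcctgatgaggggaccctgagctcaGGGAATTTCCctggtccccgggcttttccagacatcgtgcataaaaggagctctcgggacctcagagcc
Cxcl3: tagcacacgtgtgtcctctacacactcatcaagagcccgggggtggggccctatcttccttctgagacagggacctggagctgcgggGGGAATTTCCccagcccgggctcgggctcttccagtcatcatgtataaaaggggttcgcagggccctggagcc
Il6: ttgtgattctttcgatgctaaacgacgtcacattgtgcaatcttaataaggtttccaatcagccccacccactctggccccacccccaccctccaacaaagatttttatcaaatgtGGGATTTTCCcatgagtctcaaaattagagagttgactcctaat
Nfkbia: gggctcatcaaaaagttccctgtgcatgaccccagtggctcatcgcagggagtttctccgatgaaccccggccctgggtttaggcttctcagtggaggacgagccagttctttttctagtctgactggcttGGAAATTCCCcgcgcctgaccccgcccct
Csf1: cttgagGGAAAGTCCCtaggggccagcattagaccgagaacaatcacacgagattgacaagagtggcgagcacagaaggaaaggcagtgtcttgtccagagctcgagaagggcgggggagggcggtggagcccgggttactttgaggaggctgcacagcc
C3: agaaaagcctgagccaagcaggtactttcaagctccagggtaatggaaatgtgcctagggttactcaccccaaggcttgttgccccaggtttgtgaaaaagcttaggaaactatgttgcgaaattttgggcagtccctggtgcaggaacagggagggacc
These sequences are from RefSeq on GRCm38, at chr5:90891085-90891240, chr5:90903739-90903870 and chr5:90785941-90786100 (neighbours on the plus strand), chr5:30012954-30013113 (plus strand), chr12:55492648-55492807, chr3:107760470-107760629 and chr17:57228137-57228296 (minus strand). Each ends before the first annotated base of the gene. Windows of 300 bases, 250 before the start and 50 from it, were given for 32 of the 42 members and not for Cxcl5, Cxcl16, Ccl2, Ccl5, Ccl7, Csf3, Tslp, Nfkb1, Relb and Vcam1. The motif GGGANTTTCC, searched on both strands, was in 135 of all 32851 windows (0.411 percent). Among the members it was in the windows of Csf1, Cxcl1, Cxcl2, Cxcl3, Il6, Nfkb2 and Nfkbia, which are 7 of 32 members and 8 of their 39 windows. The wider pattern GGGANNNNCC, which every match of the first also fulfils, was in 20.7 percent of all windows and in those of 18 members, C3 among them. A match describes the letters of a window and does not show that a factor binds there.

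Many members lie side by side. Cxcl5, Cxcl3, Cxcl1 and Cxcl2 occupy chromosome 5 from 90759360 to 90905938, with Cxcl10 farther along at 92346638 to 92348889. Ccl2, Ccl7 and Ccl8 occupy chromosome 11 from 82035571 to 82116799, and Ccl5 and Ccl9 lie beyond them from 83525778 to 83578636.

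Values are normalised read counts, made within each table, so levels are compared only within a cell type. Summed values per library were 20305511 to 22094490 in MEFs, 16022043 to 16529089 in ESCs and 15565648 to 16324223 in MKFs, from an estimated 12720000 to 24470000 reads on genes. Actg1 had 1004 and 1026 in Actg1 KO MEFs, 25 and 15 in locus deletion MEFs and 5737 and 5672 in wild-type MEFs. Actb had 23650 and 22707 in Actb KO ESCs, 2372 and 2336 in locus deletion ESCs and 36364 and 34140 in wild-type ESCs. Fermt2, the gene of Kindlin-2, had 1251 and 1240 in KO MKFs and 3078 and 3142 in floxed MKFs.

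Markers of cell state also differed between the groups. The 11 fibroblast markers summed to 262944 and 276972 in Actg1 KO MEFs, 93283 and 100025 in locus deletion MEFs and 114849 and 104470 in wild-type MEFs. Of these, Dcn, a matrix proteoglycan of fibroblasts, had 8037 and 7653 in KO MEFs, 12 and 5 in locus deletion MEFs and 17 and 14 in wild-type MEFs. Not all of the 11 went this way, since 6 rose, 2 fell and 3 did not pass in KO against wild type. The 6 measured macrophage and blood cell markers of 12 summed to 119 and 145 in KO MEFs, 68 and 79 in locus deletion MEFs and 67 and 51 in wild-type MEFs. In the MKFs, the 8 epithelial markers summed to 20916 and 21496 in KO cells and 2047 and 2190 in floxed cells. The 7 measured fibroblast markers of 11 summed to 24153 and 27875 in KO MKFs and 48887 and 49107 in floxed MKFs, and Dcn, Lum, Thy1 and Col3a1 were not analysed there. In bulk RNA, fewer cells of a type and less RNA per cell cannot be told apart.

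In Actg1 KO MEFs, most of the measured chemokines and the acute phase, complement and enzyme genes rose against wild type, as did Il1a, Il6 and Lif. Of 35 members tested, 28 rose, 2 fell and 5 did not pass an adjusted p of 0.05 in limma. The MEF rows reach at least 4 in some library. Of the members that passed, Chil1, Cxcl3, Ccl20 and Saa3 reached it in KO libraries alone. These genes could pass only as higher, and they are part of the rises counted here and by role below. Across all 21589 genes, 39.7 percent passed, 20.6 percent as higher and 19.1 percent as lower. The median log2 difference (KO minus wild type) was 1.47 over the members and 0.06 over all genes, and 19 members rose at least 2-fold. The share of all genes that rose as far was not counted, here or for the 2-fold counts by role below. In locus deletion MEFs against the same wild-type libraries, 5 members rose, 13 fell and 17 did not pass, where 22 percent of all genes passed (9.46 percent higher, 12.6 percent lower). Their median log2 difference (locus deletion minus wild type) was -0.35, against 0.00 over all genes. Between the mutants themselves, 29 members were higher and 3 lower in KO MEFs than in locus deletion MEFs, where 45.2 percent of all genes passed (24.5 percent higher, 20.7 percent lower). These 3 comparisons share libraries, so their values stand side by side below and are not counted as separate support for each other.

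**Figure D1:**
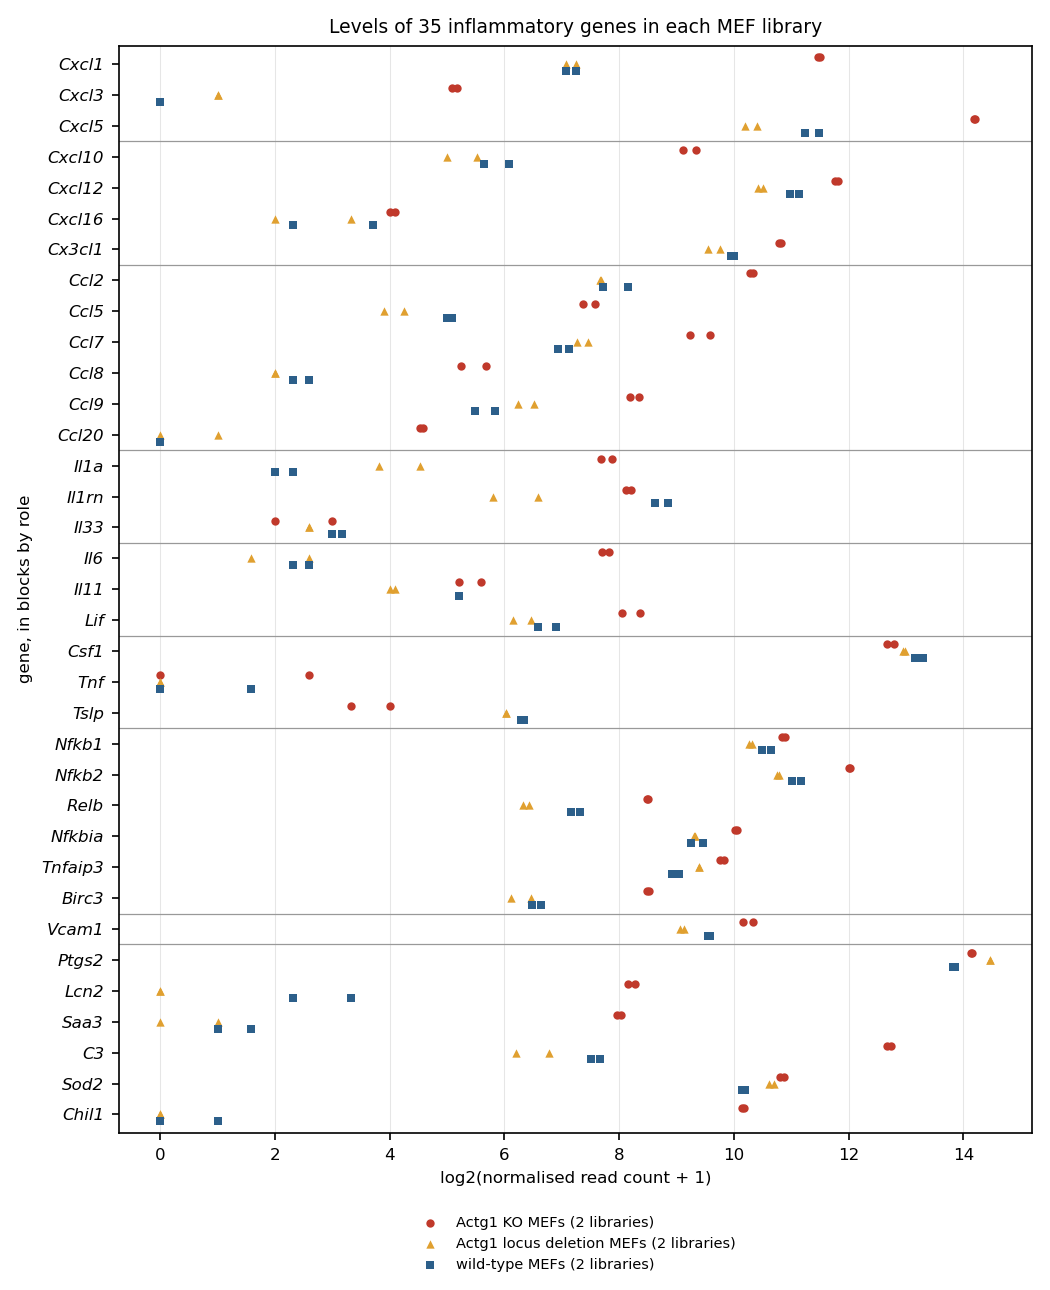
Levels of the 35 members in MEFs as log2(normalised read count + 1), 1 point per library, with Actg1 KO (circles), locus deletion (triangles) and wild type (squares) from top to bottom in each row, and lines between roles. Libraries of equal value overlie each other. The KO libraries lie to the right of both other groups for most chemokines and acute phase genes, for example Cxcl1 at 2909 and 2823 normalised read counts, and to the left for Csf1 and Tslp.

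The ELR CXC chemokines, which attract neutrophils through the receptor CXCR2, rose in all 3 measured members. Cxcl1 had 2909 and 2823 in KO MEFs, 134 and 151 in locus deletion MEFs and 133 and 150 in wild-type MEFs. Both KO libraries were far above the other 4, which overlapped. Cxcl1 was 20.3-fold higher in KO than in wild type (log2 4.33 ± 0.100 SE, limma adjusted p = 5.3e-07), while locus deletion minus wild type was 0.01 on the log2 scale (95% interval -0.22 to 0.24). Cxcl5 had 18538 and 18900 in KO MEFs, 1171 and 1357 in locus deletion MEFs and 2412 and 2844 in wild-type MEFs. The 3 groups did not overlap, with KO highest and locus deletion lowest. It rose 7.12-fold in KO MEFs (adjusted p = 1.69e-06, limma) and fell by 1.05 on the log2 scale in locus deletion MEFs (adjusted p = 0.000329, limma). Cxcl3 had 33 and 35 in KO MEFs, 1 and 1 in locus deletion MEFs and 0 and 0 in wild-type MEFs. Cxcl3 was at least 11.6-fold higher in KO than in wild type, with 3 reads per library in place of 0 (limma adjusted p = 0.000104).

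The other CXC and CX3C chemokines rose less, apart from Cxcl10. Cxcl10, an interferon-inducible ligand of T cells, had 553 and 644 in KO MEFs, 31 and 45 in locus deletion MEFs and 49 and 67 in wild-type MEFs. It rose 10.3-fold in KO MEFs (adjusted p = 2.8e-05, limma), and its difference between locus deletion and wild type, -0.60 on the log2 scale, did not pass (adjusted p = 0.103, limma). Cxcl12, the stromal ligand of CXCR4, had 3460 and 3602 in KO MEFs, 1376 and 1461 in locus deletion MEFs and 2252 and 2016 in wild-type MEFs. The groups did not overlap. Cxcl12 was higher by 0.73 (log2) in KO and fell by 0.59 in locus deletion MEFs against wild type (limma adjusted p = 0.000164 and 0.00121). Cx3cl1, the membrane-bound chemokine fractalkine, had 1800 and 1772 in KO MEFs, 745 and 868 in locus deletion MEFs and 1019 and 988 in wild-type MEFs. It was higher by 0.83 (log2) in KO MEFs and fell by 0.32 in locus deletion MEFs (limma adjusted p = 0.000165 and 0.0292). Cxcl16, a ligand of CXCR6 with at most 16 in any library, did not pass in any of the comparisons of MEFs.

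The CC chemokines, which draw monocytes, T cells and dendritic cells, rose in KO MEFs in all 6 measured members. Ccl2, the main attractant of monocytes, had 1239 and 1291 in KO MEFs, 204 and 203 in locus deletion MEFs and 210 and 284 in wild-type MEFs. Its neighbour Ccl7 had 599 and 763 in KO MEFs, 174 and 152 in locus deletion MEFs and 121 and 138 in wild-type MEFs. KO was above the other groups in both genes, by 5.12-fold for Ccl2 and 5.26-fold for Ccl7 against wild type (limma adjusted p = 1.37e-05 and 1.8e-05), and neither passed between locus deletion and wild type. Ccl5, which draws T cells, had 165 and 191 in KO MEFs, 14 and 18 in locus deletion MEFs and 33 and 31 in wild-type MEFs. Ccl9, a chemokine known from mice, had 290 and 325 in KO MEFs, 91 and 74 in locus deletion MEFs and 44 and 56 in wild-type MEFs. Both rose in KO MEFs, by 5.56-fold and 6.15-fold (limma adjusted p = 0.000119 and 3.1e-05). In locus deletion MEFs they differed in direction, since Ccl5 fell by 0.97 and Ccl9 was higher by 0.71 on the log2 scale (limma adjusted p = 0.0197 and 0.027). Ccl8 had 37 and 50 in KO MEFs, 3 and 3 in locus deletion MEFs and 5 and 4 in wild-type MEFs. Ccl20, the ligand of CCR6, had 22 and 23 in KO MEFs, 0 and 1 in locus deletion MEFs and 0 and 0 in wild-type MEFs. Ccl8 rose 9.67-fold and Ccl20 at least 7.65-fold in KO against wild type (limma adjusted p = 0.000674 and 0.00044).

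Of the interleukin-1 family, the agonist Il1a rose in both mutants and the antagonist Il1rn fell in locus deletion MEFs. Il1a had 235 and 204 in KO MEFs, 13 and 22 in locus deletion MEFs and 3 and 4 in wild-type MEFs. It rose in both mutants, by 5.62 (log2) in KO and 2.00 in locus deletion MEFs (limma adjusted p = 1.55e-05 and 0.00461), and the groups did not overlap. Il1rn, which blocks the interleukin-1 receptor, had 295 and 276 in KO MEFs, 55 and 95 in locus deletion MEFs and 393 and 463 in wild-type MEFs. Both mutants were below wild type, by 2.54 on the log2 scale in locus deletion MEFs (adjusted p = 0.000329, limma), while the KO difference of -0.58 did not pass (adjusted p = 0.0856, limma). Il33, an alarmin, had at most 8 in any library and did not pass.

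Within the IL-6 family, whose members signal through a shared receptor chain to STAT3, Il6 had 207 and 225 in KO MEFs, 2 and 5 in locus deletion MEFs and 5 and 4 in wild-type MEFs. Il6 was 48.0-fold higher in KO than in wild type (log2 5.31 ± 0.408 SE, limma adjusted p = 5.04e-05), and the other 4 libraries overlapped. Lif, a cytokine that keeps mouse stem cells undifferentiated, had 330 and 263 in KO MEFs, 70 and 87 in locus deletion MEFs and 118 and 95 in wild-type MEFs. It rose 2.78-fold in KO MEFs (adjusted p = 0.000547, limma). Il11 had 47 and 36 in KO MEFs, 16 and 15 in locus deletion MEFs and 36 and 36 in wild-type MEFs. It fell by 1.17 on the log2 scale in locus deletion MEFs (adjusted p = 0.0177, limma), and KO and wild type overlapped.

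The colony-stimulating factors and remaining cytokines held both members that fell in KO MEFs. Tslp, a cytokine of type 2 immunity, had 9 and 15 in KO MEFs, 64 and 64 in locus deletion MEFs and 80 and 77 in wild-type MEFs. It fell by 2.65 on the log2 scale in KO MEFs against wild type (adjusted p = 0.000209, limma), and its difference in locus deletion MEFs, -0.29, did not pass (adjusted p = 0.522, limma). Csf1, the growth factor of macrophages, had 6535 and 7064 in KO MEFs, 7887 and 8129 in locus deletion MEFs and 10043 and 9086 in wild-type MEFs. It fell in both mutants, by 0.49 in KO and 0.25 in locus deletion MEFs on the log2 scale (limma adjusted p = 0.000989 and 0.0358). Tnf, the classical inducer of NF-kappaB, reached 5 in 1 KO library and was at 0 in the other, at 0 and 0 in locus deletion MEFs and at 0 and 2 in wild-type MEFs, so no change was detectable at this depth.

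The subunits and feedback inhibitors of NF-kappaB all rose in KO MEFs, 2 of the 6 by 2-fold or more. Nfkb2, a subunit gene of the non-canonical pathway, had 4123 and 4164 in KO MEFs, 1759 and 1731 in locus deletion MEFs and 2294 and 2066 in wild-type MEFs. Its partner Relb had 355 and 360 in KO MEFs, 85 and 79 in locus deletion MEFs and 159 and 142 in wild-type MEFs. Nfkb1, a canonical subunit gene, had 1897 and 1819 in KO MEFs, 1233 and 1272 in locus deletion MEFs and 1597 and 1444 in wild-type MEFs. In these subunit genes the groups did not overlap and KO stood highest and locus deletion lowest. The log2 differences of KO minus wild type were 0.93 for Nfkb2, 1.24 for Relb and 0.29 for Nfkb1 (limma adjusted p = 3.23e-05, 0.000146 and 0.0124). Against wild type they fell in locus deletion MEFs by 0.32, 0.87 and 0.28 (limma adjusted p = 0.0116, 0.00204 and 0.0258). Nfkbia, the inhibitor that holds NF-kappaB in the cytoplasm, had 1037 and 1063 in KO MEFs, 634 and 640 in locus deletion MEFs and 705 and 609 in wild-type MEFs. Tnfaip3, a ubiquitin-editing inhibitor, had 860 and 904 in KO MEFs, 673 and 673 in locus deletion MEFs and 527 and 486 in wild-type MEFs. Birc3, an inhibitor of apoptosis, had 359 and 368 in KO MEFs, 87 and 68 in locus deletion MEFs and 98 and 88 in wild-type MEFs. All 3 rose in KO MEFs, by 0.68, 0.80 and 1.96 on the log2 scale (limma adjusted p = 0.000514, 0.000125 and 5.61e-05). Of these, Tnfaip3 also rose in locus deletion MEFs, by 0.41 (adjusted p = 0.00687, limma), while Nfkbia and Birc3 did not pass there.

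Vcam1, an adhesion receptor for leukocytes, had 1289 and 1145 in KO MEFs, 531 and 561 in locus deletion MEFs and 768 and 746 in wild-type MEFs. It was higher by 0.68 (log2) in KO MEFs and fell by 0.47 in locus deletion MEFs (limma adjusted p = 0.000394 and 0.00515).

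The acute phase, complement and enzyme genes all rose in KO MEFs, 4 of the 6 by 2-fold or more. Chil1, a secreted chitinase-like protein, had 1153 and 1122 in KO MEFs, 0 and 0 in locus deletion MEFs and 0 and 1 in wild-type MEFs. It rose against wild type (adjusted p = 5.53e-06, limma) and was at least 378-fold higher in KO than in locus deletion MEFs. C3, the central component of complement, had 6793 and 6484 in KO MEFs, 73 and 108 in locus deletion MEFs and 201 and 180 in wild-type MEFs. The 3 groups did not overlap, with C3 34.8-fold higher in KO than in wild type (adjusted p = 1.39e-06, limma) and lower by 1.09 on the log2 scale in locus deletion MEFs (log2 difference -1.09, limma adjusted p = 0.00317). Lcn2, which binds bacterial iron carriers, had 307 and 284 in KO MEFs, 0 and 0 in locus deletion MEFs and 4 and 9 in wild-type MEFs. Saa3, an acute phase apolipoprotein, had 262 and 247 in KO MEFs, 0 and 1 in locus deletion MEFs and 2 and 1 in wild-type MEFs. Both rose in KO MEFs against wild type, with a fold of 45.5 for Lcn2 (limma adjusted p = 5.88e-05 for Lcn2 and 3.48e-05 for Saa3), and Lcn2 fell in locus deletion MEFs, by at least 2.16-fold (adjusted p = 0.00309, limma). Sod2, the mitochondrial superoxide dismutase, had 1870 and 1793 in KO MEFs, 1570 and 1659 in locus deletion MEFs and 1133 and 1168 in wild-type MEFs. Ptgs2, the inducible enzyme of prostaglandin synthesis, had 17838 and 18203 in KO MEFs, 22496 and 22704 in locus deletion MEFs and 14769 and 14352 in wild-type MEFs. Both rose in both mutants, Sod2 by 0.67 and 0.49 and Ptgs2 by 0.31 and 0.63 on the log2 scale in KO and in locus deletion MEFs (limma adjusted p = 0.000121, 0.00144, 0.00287 and 0.000237). Ptgs2 was the member that stood higher in locus deletion than in KO MEFs while it rose in both, with a log2 difference of KO minus locus deletion of -0.33 (adjusted p = 0.00177, limma).

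**Figure D2:**
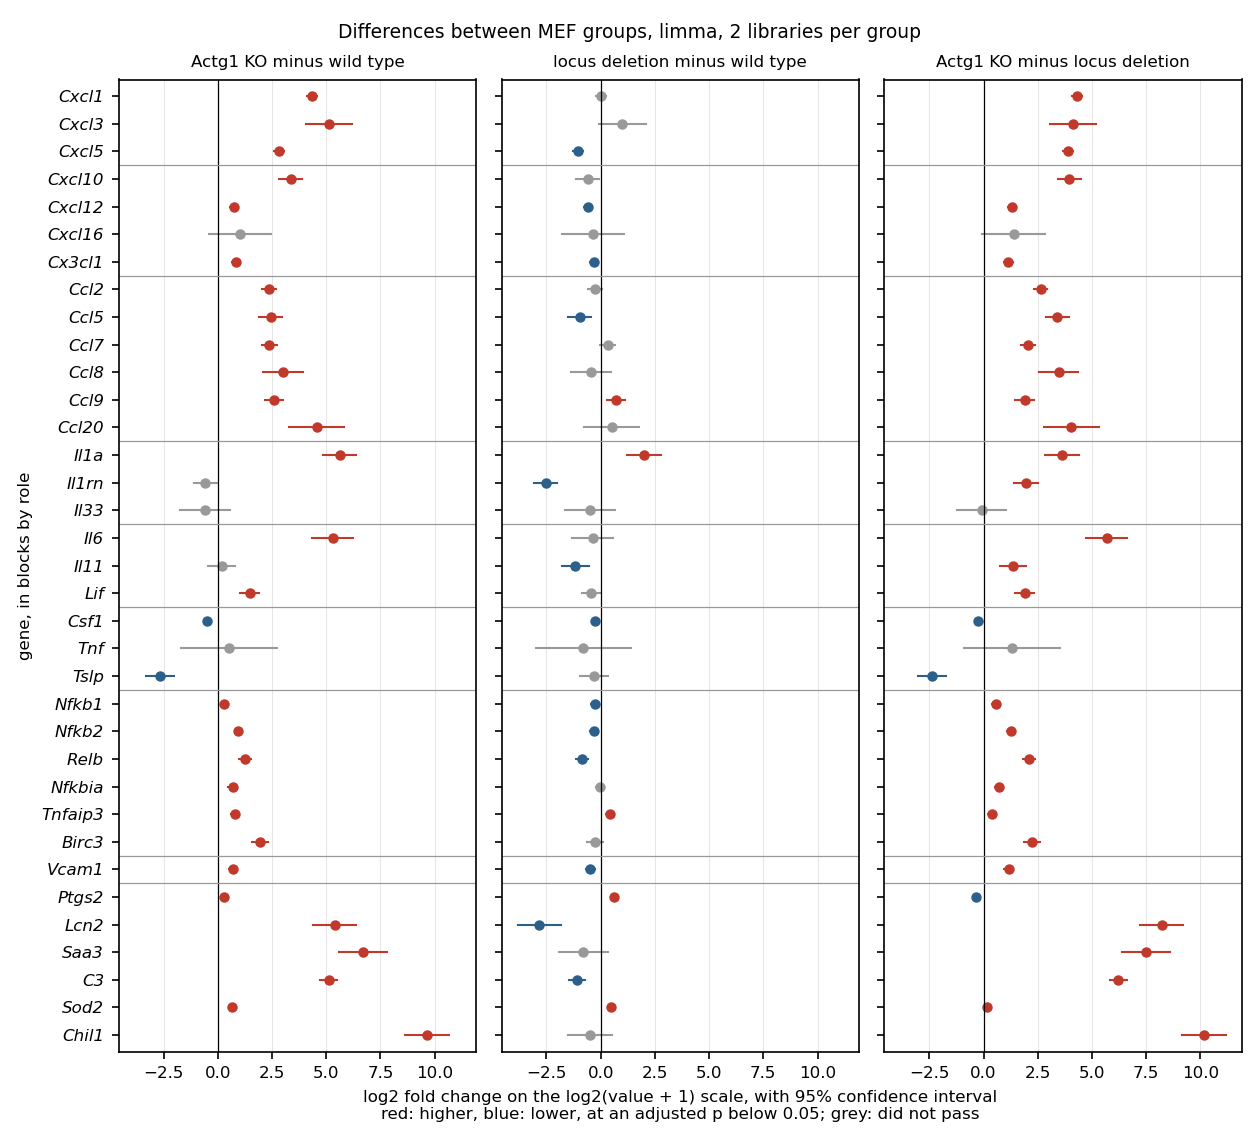
Log2 differences with 95% confidence intervals from limma for the 35 members in MEFs (2 libraries per group), for Actg1 KO minus wild type, locus deletion minus wild type and KO minus locus deletion. Red points passed as higher, blue points as lower and grey points did not pass. In the KO panel 28 points are red and 2 blue, and in the locus deletion panel 5 are red and 13 blue.

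Between the mutants, Cxcl16, Il33 and Tnf did not pass, Csf1, Tslp and Ptgs2 were lower in KO MEFs, and the other 29 members were higher. Cxcl5 was 14.8-fold, Ccl5 11.1-fold, Relb 4.36-fold and C3 73.4-fold higher in KO than in locus deletion MEFs (limma adjusted p = 3.25e-07, 1.74e-05, 8.71e-06 and 4.5e-07). Il1rn, which stood below wild type in both mutants, was 3.81-fold higher in KO than in locus deletion MEFs (adjusted p = 0.00031, limma).

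Some calls in MEFs were lost with 1 library left out. Fewer of all genes passed in such fits as well, so a loss is not particular to the members. Of the 30 calls in KO against wild type, 27 remained with any 1 of the 4 libraries left out. Those lost were Nfkb1 (without either KO library or wild-type library 2, limma adjusted p up to 0.127), Csf1 (without KO library 1, 0.0553) and Ptgs2 (without either KO library, up to 0.0593). Of the 18 calls in locus deletion against wild type, 7 remained, those of Cxcl5, Cxcl12, Il1rn, Relb, Ptgs2, Lcn2 and Sod2. The count was 9 without either wild-type library, 10 without locus deletion library 1 and 13 without locus deletion library 2. Without wild-type library 1, the calls of C3, Ccl5, Ccl9, Csf1, Cx3cl1, Il11, Il1a, Nfkb1, Nfkb2 and Vcam1 were lost, with limma adjusted p over all libraries left out of up to 0.201. All of these but Il1a were also lost without at least 1 of the other 3 libraries. Tnfaip3 was lost without wild-type library 2 (0.0629). Of the 32 calls between the mutants, 28 remained, and Csf1 (any library, up to 0.218), Sod2 (any but locus deletion library 2, up to 0.157), Il1rn (KO library 1, 0.0526) and Tnfaip3 (KO library 2, 0.0501) were lost.

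Marker values in MEFs differed between the groups in both directions. Their counts are read beside the 39.7 percent of all genes that passed in KO and the 22 percent in locus deletion against wild type. Of the 6 macrophage and blood cell markers measured, Csf1r had 27 and 53 in KO MEFs, 13 and 5 in locus deletion MEFs and 6 and 11 in wild-type MEFs, and Lyz2 had 30 and 43 in KO MEFs, 0 and 0 in locus deletion MEFs and 2 and 1 in wild-type MEFs. These 2 rose in KO against wild type (limma adjusted p = 0.0189 and 0.000563), and the other 4 did not pass. Lyz2 reached 4 in KO libraries alone, so it could pass only as higher. The pan-leukocyte gene Ptprc had 8 and 7 in KO MEFs, 3 and 3 in locus deletion MEFs and 11 and 5 in wild-type MEFs. Fibroblast markers rose in 6 and fell in 2 of 11 in KO against wild type and fell in 4 of 11 in locus deletion against wild type, with Lum at 4555 and 4508 in KO MEFs, 1 and 0 in locus deletion MEFs and 7 and 10 in wild-type MEFs. The 4 measured mesothelial markers of 5 summed to 83 and 67 in KO MEFs, 289 and 347 in locus deletion MEFs and 583 and 505 in wild-type MEFs, with 1 higher and 1 lower in KO and 2 lower in locus deletion against wild type. The 4 measured pluripotency markers of 8 summed to 2277 and 2284 in KO MEFs, 475 and 545 in locus deletion MEFs and 1925 and 1827 in wild-type MEFs. Of these, 3 were higher and 1 lower in KO and 2 lower in locus deletion against wild type, and Sox2 had 1326 and 1306 in KO MEFs, 0 and 0 in locus deletion MEFs and 44 and 32 in wild-type MEFs. The 3 measured epithelial markers of 8 summed to 227 and 194 in KO MEFs, 435 and 470 in locus deletion MEFs and 179 and 207 in wild-type MEFs, and the 6 endothelial markers of 8 to 90 and 104 in KO MEFs, 39 and 31 in locus deletion MEFs and 132 and 123 in wild-type MEFs. The part of these markers in the differences of the chemokines was not tested.

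Other genes of the pathway were counted from lists that do not hold the members. List genes that reached 4 in 1 group alone could pass only with that group higher. How many did so was not counted. Between the mutants, 45.2 percent of all genes passed (24.5 percent higher, 20.7 percent lower). Of the 5 lists, 54.3 percent (components) to 94.7 percent (interferon genes) did, so the components lay nearest the share of all genes. In KO against locus deletion MEFs, 9 components were higher and 10 lower of 35, and 18 receptors higher and 2 lower of 30. Of 38 other targets, 22 were higher and 7 lower. Of 12 STAT3 genes, 7 were higher and 3 lower, and of 19 interferon genes, 17 were higher and 1 lower. With 1 library left out, these totals were 16 to 23, 14 to 18, 22 to 28, 7 to 8 and 11 to 17. Of the 5 lists, 63.2 to 83.3 percent passed in KO and 8.33 to 47.4 percent in locus deletion against wild type, where 39.7 and 22 percent of all genes did. Of 35 NF-kappaB pathway components, 14 rose and 9 fell in KO MEFs against wild type, and 4 rose and 7 fell in locus deletion MEFs. Nfkbie, another inhibitor of NF-kappaB, had 557 and 521 in KO MEFs, 41 and 39 in locus deletion MEFs and 82 and 72 in wild-type MEFs. Traf1, an adaptor of tumour necrosis factor receptors, had 242 and 249 in KO MEFs, 15 and 26 in locus deletion MEFs and 69 and 69 in wild-type MEFs. Both rose in KO and fell in locus deletion MEFs, while Irak2, a kinase below the interleukin-1 receptor, went the other way, with 136 and 136 in KO MEFs, 570 and 632 in locus deletion MEFs and 337 and 318 in wild-type MEFs. The log2 differences of KO minus wild type were 2.79 for Nfkbie, 1.82 for Traf1 and -1.26 for Irak2 (limma adjusted p = 7.97e-06, 0.00093 and 4.78e-05). The call of Traf1 was lost without either KO library (adjusted p up to 0.0659, limma) and, in locus deletion MEFs, without either wild-type library (up to 0.0633). The component count was 11 to 15 of 35 in KO and 3 to 8 in locus deletion MEFs with 1 library left out.

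Of 30 cytokine, chemokine and Toll-like receptors, 15 rose and 4 fell in KO MEFs, and 4 rose and 9 fell in locus deletion MEFs. Ackr3, a decoy receptor for Cxcl12, had 757 and 689 in KO MEFs, 0 and 0 in locus deletion MEFs and 28 and 41 in wild-type MEFs. Il17ra, the receptor of interleukin-17, had 247 and 255 in KO MEFs, 2 and 4 in locus deletion MEFs and 109 and 93 in wild-type MEFs. Both rose in KO MEFs (log2 4.37 and 1.31, limma adjusted p = 2.3e-05 and 0.00768) and fell in locus deletion MEFs (log2 -5.13 and -4.71, limma adjusted p = 3.75e-05 and 5.02e-05). At low levels, Cxcr4, the signalling receptor of Cxcl12, had 5 and 5 in KO MEFs and 0 and 0 in wild-type MEFs, and Csf2rb had 25 and 19 in KO MEFs, 0 and 0 in locus deletion MEFs and 7 and 4 in wild-type MEFs. Tlr6 rose to 13 and 27 in KO MEFs, against 4 and 0 in wild-type MEFs, a call lost without either KO library or wild-type library 2 (adjusted p up to 0.208, limma). Csf2rb was lost in locus deletion MEFs without wild-type library 1 (adjusted p = 0.0583, limma). With 1 library left out, 6 to 11 of 30 receptors passed in locus deletion MEFs.

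Among 38 other inflammatory targets, 20 rose and 10 fell in KO MEFs, and 1 rose and 12 fell in locus deletion MEFs. Hp, the haemoglobin-binding acute phase protein, had 552 and 544 in KO MEFs, 0 and 1 in locus deletion MEFs and 1 and 2 in wild-type MEFs. Nos2, the inducible nitric oxide synthase, had 74 and 64 in KO MEFs and 0 and 0 in wild-type MEFs, and Steap4, a metalloreductase, had 110 and 93 in KO MEFs and 1 and 0 in wild-type MEFs. These 3 rose in KO MEFs (limma adjusted p = 1.47e-05 for Hp, 4.7e-05 for Nos2 and 7.08e-05 for Steap4). The collagenase Mmp13 had 3297 and 3867 in locus deletion MEFs and 17420 and 17152 in wild-type MEFs, and fell by 2.27 on the log2 scale (adjusted p = 8.79e-06, limma). Il15 fell to 1 and 2 in locus deletion MEFs, against 18 and 30 in wild-type MEFs (adjusted p = 0.0017, limma). Tnfrsf9, a costimulatory receptor, had 625 and 633 in KO MEFs, 2 and 0 in locus deletion MEFs and 8 and 9 in wild-type MEFs. Its call in locus deletion MEFs was lost without either wild-type library (adjusted p up to 0.126, limma). Tnfsf11, the osteoclast factor RANKL, had 99 and 110 in KO MEFs and 0 and 0 in locus deletion MEFs.

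Genes below the cytokines moved as well. Of 12 IL-6 and STAT3 response genes, 6 rose and 4 fell in KO MEFs, and 1 fell in locus deletion MEFs. With 1 library left out, 6 to 8 passed in KO and 0 to 1 in locus deletion MEFs. Stat3 had 4050 and 3942 in KO MEFs, 1325 and 1415 in locus deletion MEFs and 1359 and 1329 in wild-type MEFs. Socs3, the feedback inhibitor of this pathway, had 711 and 685 in KO MEFs and 365 and 367 in wild-type MEFs, and Junb had 1799 and 1800 in KO MEFs and 926 and 829 in wild-type MEFs. All 3 rose in KO MEFs (log2 1.57, 0.93 and 1.04, limma adjusted p = 2.78e-06, 0.000109 and 4.59e-05). Timp1 was the gene that fell in locus deletion MEFs, with 2772 and 2248 there and 3366 and 3351 in wild-type MEFs, and its call was lost without either wild-type library (adjusted p up to 0.149, limma). Cish, at 12 and 7 in KO MEFs and 3 and 2 in locus deletion MEFs, passed between the mutants but not with any 1 library left out (adjusted p up to 0.244, limma).

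Of 19 interferon response genes, 11 rose and 1 fell in KO MEFs, and 9 fell in locus deletion MEFs with none higher. Gbp2, an interferon-induced GTPase, had 792 and 828 in KO MEFs, 5 and 4 in locus deletion MEFs and 23 and 23 in wild-type MEFs. Gbp3 had 157 and 151 in KO MEFs, 2 and 1 in locus deletion MEFs and 18 and 13 in wild-type MEFs. Ifi44 had 99 and 97 in KO MEFs, 1 and 1 in locus deletion MEFs and 14 and 11 in wild-type MEFs. In all 3 genes KO stood highest and locus deletion lowest without overlap. The log2 differences of KO minus wild type were 5.08, 3.25 and 2.88 (limma adjusted p = 3.73e-06, 0.000268 and 0.000419). Mx2, an antiviral GTPase, fell to 0 and 1 in locus deletion MEFs, against 6 and 11 in wild-type MEFs, a call lost without locus deletion library 1 or either wild-type library (adjusted p up to 0.119, limma). With 1 library left out, 8 to 10 of the 19 passed in KO and 4 to 10 in locus deletion MEFs.

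In Kindlin-2 KO MKFs, members passed in both directions against floxed cells. All 4 acute phase, complement and enzyme genes and 6 of 8 CXC and CX3C chemokines rose, Cxcl12 fell and Cxcl5 did not pass. Of the 6 NF-kappaB subunits and inhibitors 4 fell, and Vcam1 fell most on the log2 scale. Of 32 members tested, 15 rose, 10 fell and 7 did not pass, where 49.2 percent of all 18288 genes passed (24.3 percent higher, 24.9 percent lower). The MKF rows reach at least 5 in some library. Of the members that passed, Cxcl14, Ccl5, Csf2 and Lcn2 reached it in KO cells alone, so they could pass only as higher. Cxcl12, Ccl7 and Tslp reached it in floxed cells alone, so they could pass only as lower. The median log2 difference of KO minus floxed was 0.37 over the members and 0.01 over all genes.

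**Figure D3:**
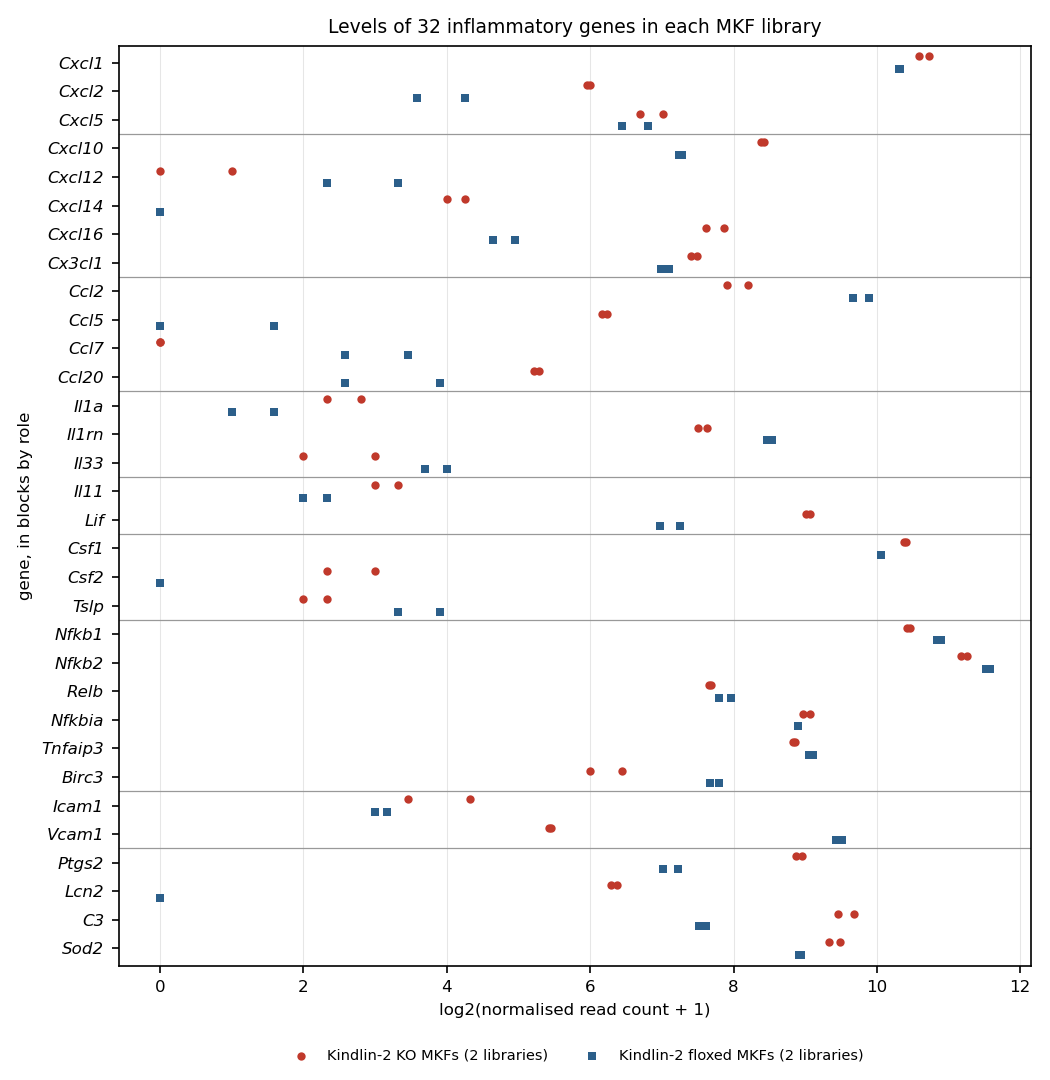
Levels of the 32 members in MKFs as log2(normalised read count + 1), 1 point per library, with Kindlin-2 KO as circles above floxed cells as squares in each row, and lines between roles. Libraries of equal value overlie each other. Vcam1 lies far lower in KO cells, at 43 and 42 against 692 and 727 in floxed cells, while Lcn2, Cxcl16 and Ccl5 lie higher.

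Vcam1 had 43 and 42 in KO MKFs and 692 and 727 in floxed MKFs. It fell by 4.03 on the log2 scale (SE 0.0818, limma adjusted p = 4.47e-05). The other adhesion receptor, Icam1, had 19 and 10 in KO MKFs and 7 and 8 in floxed MKFs and did not pass (adjusted p = 0.154, limma).

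Among the chemokines, Cxcl16 had 232 and 195 in KO MKFs and 24 and 30 in floxed MKFs, and rose 7.91-fold (adjusted p = 0.000303, limma). Cxcl10 had 344 and 333 in KO MKFs and 154 and 150 in floxed MKFs, and rose 2.23-fold (adjusted p = 0.000367, limma). Cxcl14, a chemokine of epithelia, had 18 and 15 in KO MKFs and 0 and 0 in floxed MKFs, and was at least 5.48-fold higher (adjusted p = 0.00123, limma). The groups did not overlap in these genes. Cxcl2 had 63 and 61 in KO MKFs and 11 and 18 in floxed MKFs, and Cxcl1 had 1695 and 1535 in KO MKFs and 1263 and 1286 in floxed MKFs. Both rose, by 2.06 and 0.34 on the log2 scale (limma adjusted p = 0.00363 and 0.00905), whereas their neighbour Cxcl5 had 129 and 103 in KO MKFs and 86 and 111 in floxed MKFs and overlapped. Cx3cl1 had 179 and 168 in KO MKFs and 136 and 126 in floxed MKFs, and was higher by 0.40 (log2, limma adjusted p = 0.0221). Cxcl12 fell to 0 and 1 in KO MKFs, against 4 and 9 in floxed MKFs (adjusted p = 0.0331, limma).

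The CC chemokines of MKFs went both ways. Ccl2 had 293 and 240 in KO MKFs and 810 and 950 in floxed MKFs, and fell by 1.72 on the log2 scale (adjusted p = 0.000601, limma). Its neighbour Ccl7 had 0 and 0 in KO MKFs and 5 and 10 in floxed MKFs, and was at least 2.59-fold lower in KO cells (adjusted p = 0.0082, limma). Ccl5, from the farther group on chromosome 11, had 74 and 71 in KO MKFs and 2 and 0 in floxed MKFs, and rose (adjusted p = 0.00172, limma). Ccl20 also rose, to 36 and 38 in KO MKFs, against 14 and 5 in floxed MKFs (adjusted p = 0.0233, limma).

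Of the cytokines in MKFs, Lif had 516 and 537 in KO cells and 151 and 125 in floxed cells, and rose 3.82-fold (adjusted p = 0.000287, limma). Il1rn had 198 and 181 in KO MKFs and 353 and 370 in floxed MKFs, and fell by 0.93 on the log2 scale (adjusted p = 0.000906, limma). Csf1 had 1332 and 1359 in KO MKFs and 1067 and 1065 in floxed MKFs, a rise of 0.34 on the log2 scale (adjusted p = 0.00266, limma). The low genes Csf2, a growth factor of granulocytes and macrophages, and Tslp passed in opposite directions. Csf2 had 7 and 4 in KO MKFs and 0 and 0 in floxed MKFs, which makes it at least 1.83-fold higher (adjusted p = 0.0114, limma). Tslp had 3 and 4 in KO MKFs and 9 and 14 in floxed MKFs (adjusted p = 0.0315, limma). Il1a, Il33 and Il11, with at most 15 in any library, did not pass.

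None of the 6 NF-kappaB subunit and inhibitor genes rose in MKFs, and 4 fell. Nfkb1 had 1409 and 1371 in KO MKFs and 1833 and 1910 in floxed MKFs, and Nfkb2 had 2306 and 2459 in KO MKFs and 3050 and 2950 in floxed MKFs. Birc3 had 86 and 63 in KO MKFs and 203 and 221 in floxed MKFs, and Tnfaip3 had 452 and 464 in KO MKFs and 532 and 552 in floxed MKFs. These 4 fell, by 0.43, 0.33, 1.51 and 0.24 on the log2 scale (limma adjusted p = 0.00149, 0.00451, 0.00216 and 0.0202). Relb, with 205 and 201 in KO MKFs and 248 and 221 in floxed MKFs, and Nfkbia, with 498 and 534 in KO MKFs and 477 and 478 in floxed MKFs, did not pass, with 95% intervals of -0.44 to 0.03 and -0.05 to 0.27 on the log2 scale.

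All 4 measured acute phase, complement and enzyme genes rose in Kindlin-2 KO MKFs. Lcn2 had 82 and 77 in KO MKFs and 0 and 0 in floxed MKFs, at least 26.4-fold higher (adjusted p = 0.000182, limma). C3 had 701 and 822 in KO MKFs and 183 and 195 in floxed MKFs, and Ptgs2 had 497 and 469 in KO MKFs and 149 and 128 in floxed MKFs. C3 rose 4.03-fold and Ptgs2 3.49-fold (limma adjusted p = 0.000195 and 0.00027). Sod2 had 718 and 645 in KO MKFs and 480 and 491 in floxed MKFs, a rise of 0.49 on the log2 scale (adjusted p = 0.00462, limma).

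Of the 25 calls in MKFs, 5 remained with any 1 library left out, those of Cxcl10, Cxcl14, Cxcl16, Lcn2 and Vcam1. The other calls were lost in at least 1 such fit. Far fewer of all genes passed in these fits as well, so these losses, and those of the lists below, are not particular to the genes followed here. Beside these values, Epcam, an epithelial adhesion molecule, had 3430 and 3401 in KO MKFs and 26 and 11 in floxed MKFs, and all 8 epithelial markers rose while 6 of 7 fibroblast markers fell. Of 5 macrophage and blood cell markers measured in MKFs, 4 rose, and their sums were 281 and 288 in KO cells and 165 and 167 in floxed cells. The part of these markers in the results was not tested.

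In MKFs, the pathway lists are read beside the 49.2 percent of all genes that passed, and 47.6 to 63 percent of 4 lists and 92.3 percent of the STAT3 list did. Of 35 NF-kappaB components, 6 rose and 14 fell, and of 25 receptors, 5 rose and 9 fell. Bcl3, an atypical inhibitor that works in the nucleus, had 33 and 37 in KO MKFs and 102 and 118 in floxed MKFs, while the kinase Ikbke had 152 and 185 in KO MKFs and 63 and 57 in floxed MKFs and Traf1 had 245 and 242 in KO MKFs and 128 and 114 in floxed MKFs. These 3 passed (log2 -1.62, 1.47 and 1.01, limma adjusted p = 0.00114, 0.00128 and 0.00118). Among the receptors, Cx3cr1, the receptor of Cx3cl1, rose to 16 and 12 in KO MKFs, against 5 and 2 in floxed MKFs, and Ackr3 fell to 9 and 11 in KO MKFs, against 27 and 21 in floxed MKFs (limma adjusted p = 0.0288 and 0.0207). Il1rl1, the receptor of Il33, had 2684 and 2581 in KO MKFs and 1155 and 1176 in floxed MKFs (log2 1.17, limma adjusted p = 0.000101). Of 27 other targets, 9 rose and 8 fell. Plau, the urokinase protease, had 1816 and 1943 in KO MKFs and 163 and 126 in floxed MKFs, and Tnfaip2 had 2232 and 2221 in KO MKFs and 242 and 218 in floxed MKFs. Both rose (log2 3.70 and 3.27, limma adjusted p = 0.000103 and 4.47e-05), and Il18 fell to 1 and 0 in KO MKFs, against 41 and 43 in floxed MKFs (adjusted p = 0.00105, limma). Of 13 IL-6 and STAT3 response genes, 7 rose and 5 fell, among them Ctf1, a cytokine of the IL-6 family, with 1 and 1 in KO MKFs and 38 and 31 in floxed MKFs (adjusted p = 0.00064, limma). The feedback inhibitors Cish, with 5 and 6 in KO MKFs and 28 and 21 in floxed MKFs, and Socs1, with 37 and 39 in KO MKFs and 15 and 18 in floxed MKFs, passed in opposite directions (limma adjusted p = 0.00533 and 0.00931). Of 21 interferon response genes, 8 rose and 2 fell. Oas1a had 29 and 29 in KO MKFs and 0 and 0 in floxed MKFs. Isg15 had 25 and 13 in KO MKFs and 0 and 0 in floxed MKFs. Ifit1 had 226 and 183 in KO MKFs and 4 and 12 in floxed MKFs. These 3 rose (limma adjusted p = 0.000539 for Oas1a, 0.00202 for Isg15 and 0.00152 for Ifit1). Oas1a and Isg15 reached 5 in KO cells alone and could pass only as higher. Il18 and Ctf1 reached it in floxed cells alone and could pass only as lower. How many other list genes were bound in this way was not counted. With 1 library left out, the counts were 2 to 5 components, 2 to 3 receptors, 5 to 11 other targets, 1 to 4 STAT3 genes and 5 to 6 interferon genes. Of the 15 genes named here, the calls of Il1rl1, Plau, Tnfaip2, Ctf1 and Oas1a remained, and the other 10 were lost without at least 1 library (limma adjusted p up to 0.232).

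In ESCs few members were measured, and 11.1 percent of those passed in KO and 33.3 percent in locus deletion cells. The 18 members in the ESC table lacked the CC chemokines, the ELR CXC chemokines and the interleukin-1 family, which were not analysed there. In Actb KO ESCs, 2 members rose, none fell and 16 did not pass, where 4.88 percent of 23054 genes passed (2.44 percent higher, 2.44 percent lower). In locus deletion ESCs, 2 rose, 4 fell and 12 did not pass, where 11.2 percent of all genes passed (5.19 percent higher, 6 percent lower). The all-gene count of KO against wild type was 563 higher and 563 lower, 467 higher and 786 lower with libraries scaled without genes over 1 percent of a library, and 921 higher and 929 lower with a replicate block. With that block, 4 members rose and 4 fell in locus deletion ESCs, Nfkb1 and Lif being added (limma adjusted p = 0.037 and 0.041). Over all genes, the block gave 1784 higher and 1943 lower in locus deletion ESCs, against 1196 and 1384 without it.

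**Figure D4:**
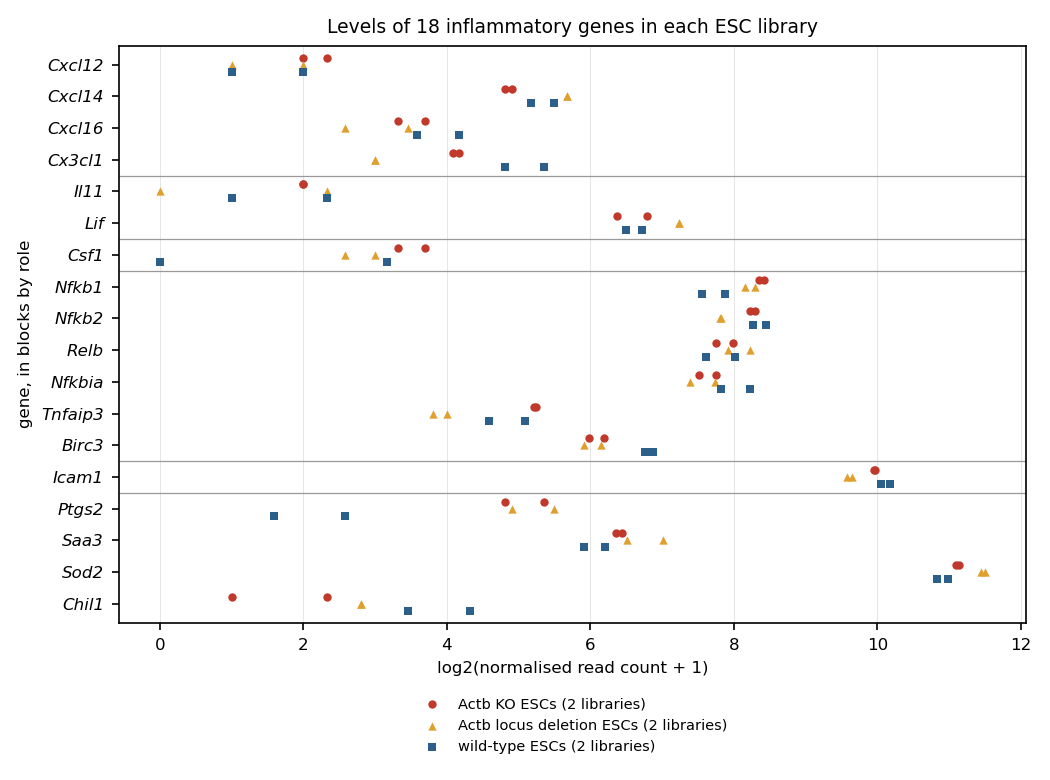
Levels of the 18 members in ESCs as log2(normalised read count + 1), 1 point per library, with Actb KO (circles), locus deletion (triangles) and wild type (squares) from top to bottom in each row, and lines between roles. Libraries of equal value overlie each other. Most members lie within a narrow range over the 6 libraries, and Ptgs2 lies higher in both mutants than its wild-type values of 2 and 5.

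Ptgs2 had 27 and 40 in Actb KO ESCs, 29 and 44 in locus deletion ESCs and 2 and 5 in wild-type ESCs. It rose in both mutants, by 3.00 and 3.11 on the log2 scale (limma adjusted p = 0.00975 and 0.0044), and the mutants overlapped. Nfkb1 had 325 and 343 in KO ESCs, 314 and 284 in locus deletion ESCs and 234 and 188 in wild-type ESCs. It rose in KO ESCs (log2 0.67, limma adjusted p = 0.0441), while its difference in locus deletion ESCs, 0.51, did not pass (adjusted p = 0.0666, limma). Sod2 had 2250 and 2197 in KO ESCs, 2903 and 2789 in locus deletion ESCs and 2018 and 1819 in wild-type ESCs, and rose in locus deletion ESCs (log2 0.57, limma adjusted p = 0.00935). Cx3cl1 had 16 and 17 in KO ESCs, 7 and 7 in locus deletion ESCs and 40 and 27 in wild-type ESCs, without overlap. It fell by 2.08 on the log2 scale in locus deletion ESCs (adjusted p = 0.00832, limma), and the KO difference of -0.95 did not pass (adjusted p = 0.173, limma). Nfkb2 had 312 and 297 in KO ESCs, 224 and 225 in locus deletion ESCs and 349 and 308 in wild-type ESCs. Birc3 had 62 and 72 in KO ESCs, 70 and 59 in locus deletion ESCs and 116 and 108 in wild-type ESCs. Icam1 had 1000 and 991 in KO ESCs, 799 and 762 in locus deletion ESCs and 1153 and 1057 in wild-type ESCs. These 3 fell in locus deletion ESCs, by 0.54, 0.79 and 0.50 on the log2 scale (limma adjusted p = 0.0335, 0.0368 and 0.0195).

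Of the members that passed in neither ESC comparison, Relb, Nfkbia, Lif and Saa3 had values of 59 to 299 over the 6 libraries, and Cxcl12, Cxcl14, Cxcl16, Il11, Csf1, Tnfaip3 and Chil1 values of 0 to 50. No ESC call among the members remained with any 1 library left out. Far fewer of all genes passed in such fits as well, so these losses, and those of the lists below, are not particular to the genes followed here. The pluripotency markers summed to 60644 and 61436 in KO ESCs, 64726 and 61526 in locus deletion ESCs and 56285 and 56793 in wild-type ESCs. The 6 measured macrophage and blood cell markers summed to 2059 and 1961 in KO ESCs, 1407 and 1293 in locus deletion ESCs and 1126 and 977 in wild-type ESCs, with 2 and 1 of them higher in KO and in locus deletion ESCs, and their part in the results was not tested.

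In ESCs, the wider pathway lists are read beside the 4.88 percent of all genes that passed in KO and the 11.2 percent in locus deletion cells. In KO ESCs, 1 of 35 components fell, 1 of 24 receptors fell, 3 of 25 other targets rose and 2 fell, 2 of 13 STAT3 genes rose and 1 fell, and 1 of 12 interferon genes rose. With the replicate block, 1 component rose and 1 fell, 4 other targets rose and 2 fell, and 1 interferon gene rose and 2 fell. In locus deletion ESCs, 6 components rose and 2 fell, 2 receptors rose and 4 fell, 1 other target rose and 4 fell, 2 STAT3 genes rose and 2 fell, and 3 interferon genes rose and 2 fell. With the block, 2 receptors rose and 5 fell in locus deletion ESCs, and 3 STAT3 genes rose and 2 fell. Over all genes, the block gave 921 higher and 929 lower in KO ESCs, and 1784 and 1943 in locus deletion ESCs. The share of a list that passed without the block was 2.86 to 23.1 percent in KO ESCs and 20 to 41.7 percent in locus deletion ESCs. With 1 library left out, the KO counts were 0, with 0 to 1 for the interferon list. In locus deletion ESCs they were then 0 components, 0 receptors, 0 to 1 other targets, 0 to 2 STAT3 genes and 1 interferon gene. Ddx58, a sensor of viral RNA, had 849 and 859 in KO ESCs, 502 and 562 in locus deletion ESCs and 148 and 150 in wild-type ESCs. Osm, a cytokine of the IL-6 family, had 121 and 101 in KO ESCs, 164 and 188 in locus deletion ESCs and 40 and 33 in wild-type ESCs. Both rose in both mutants, by 2.51 and 1.83 for Ddx58 and 1.58 and 2.24 for Osm on the log2 scale (limma adjusted p = 5.61e-05, 0.000152, 0.00491 and 0.00061). Their calls were lost with some libraries left out, Ddx58 in KO ESCs (up to 0.0574) and Osm in KO and locus deletion ESCs (up to 0.187 and 0.0552). The chemokine gene Ccl25, which is not among the 42, had 31 and 42 in KO ESCs, 37 and 40 in locus deletion ESCs and 121 and 104 in wild-type ESCs. It fell in both mutants (log2 -1.61 and -1.52, limma adjusted p = 0.00912 and 0.00592), a call lost with any 1 library left out (up to 0.195 and 0.0953).

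Other genes of the lists passed in ESCs. The inhibitor Tnip1 had 1111 and 870 in KO ESCs and 1776 and 1444 in wild-type ESCs, and the receptor Tnfrsf1b had 69 and 61 in KO ESCs and 138 and 107 in wild-type ESCs. The early response gene Ier3 had 10 and 16 in KO ESCs and 53 and 47 in wild-type ESCs, and the kinase Pim1 had 373 and 349 in KO ESCs and 730 and 709 in wild-type ESCs. These 4 fell (limma adjusted p = 0.0378, 0.045, 0.0196 and 0.00332). Zc3h12a, an RNase that degrades cytokine transcripts, rose to 143 and 149 in KO ESCs, against 72 and 83 in wild-type ESCs, and Junb rose to 160 and 167 in KO ESCs, against 102 and 92 in wild-type ESCs (limma adjusted p = 0.0233 and 0.0412). In locus deletion ESCs, the kinase adaptor Tab1 fell, with 59 and 78 there and 181 and 123 in wild-type ESCs, while Irak2 rose, with 156 and 190 there and 85 and 75 in wild-type ESCs (limma adjusted p = 0.0198 and 0.00688). Nfkbie rose to 133 and 106 in locus deletion ESCs, against 61 and 71 in wild-type ESCs (adjusted p = 0.0456, limma). The receptors Tlr2, Il1r1 and Tnfrsf1a fell in locus deletion ESCs, by 1.61, 1.59 and 1.20 on the log2 scale (limma adjusted p = 0.0178, 0.0403 and 0.00763). Cflar, an inhibitor of cell death, had 9 and 10 in locus deletion ESCs and 48 and 46 in wild-type ESCs, and Ier3 had 12 and 13 in locus deletion ESCs and 53 and 47 in wild-type ESCs, and both fell (limma adjusted p = 0.00232 and 0.00964). Of the feedback inhibitors, Socs2 rose to 674 and 829 in locus deletion ESCs, against 241 and 433 in wild-type ESCs, and Socs3 fell to 520 and 612 in locus deletion ESCs, against 1061 and 1033 in wild-type ESCs (limma adjusted p = 0.0343 and 0.00398). Of the interferon genes, Rsad2 had 11 and 7 in locus deletion ESCs and 0 and 0 in wild-type ESCs, and Bst2 had 51 and 37 in locus deletion ESCs and 147 and 95 in wild-type ESCs (limma adjusted p = 0.0348 and 0.0184). Each of these calls was lost without at least 1 library (limma adjusted p up to 0.297 in KO and 0.265 in locus deletion ESCs).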

How the data were processed

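RNA was extracted with on-column DNase treatment and made into libraries with a stranded total RNA kit, per the labels' protocols. Tools listed without a role in the submitters' processing notes are STAR 2.5.3a, featureCounts 1.6.0 from Subread, DESeq2 1.14.1 and FastQC, on mouse build GRCm38 (mm10). The strand setting and the handling of multi-mapping reads are not given in the sources used here, so near-identical copies and antisense partners cannot be told apart. The values the authors deposited, 1 table per cell type, are a score: whole numbers that behave like gene counts scaled by a library factor and then rounded, judged from the gaps between low values. They were not tested as counts. Rows reach at least 4 in some library (MEF, ESC) or 5 (MKF). One read was worth an estimated 0.715 to 1.30, and floors cover counting error only.

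Tests were two-sided. They used limma 3.58.1 (R 4.3.3) with values taken as log2(value + 1), which understates changes of low genes. Genes had a mean of at least 1, all groups of a table were in 1 fit with a trend in the moderation, and p-values were adjusted by Benjamini-Hochberg over all genes of a comparison. Residual degrees of freedom were 3 (MEF, ESC) and 2 (MKF). The procedure was tested on simulated data. A fold against a group at 0 in both libraries is a lower bound, with the value of 3 reads in each library. The members and lists were chosen with earlier results of these data known. Members are given per library where they passed a comparison of a table or had a group mean of at least 50 in MEFs, and of each pathway list the 3 genes with the largest log2 difference among those that passed in a comparison are named. Same-numbered ESC libraries shifted in the same direction (correlations across genes of 0.678, 0.349 and 0.492 between the 3 groups). This pairing comes from the values, as the labels give only numbers. A replicate block therefore stands beside ESC counts of members and list genes where it changes them. Alternatives changed the pseudocount (0.5, 5), the filter (none, 10), the scaling, the moderation, the libraries fitted and the block. Gene positions are from GENCODE M21 and promoter windows from RefSeq, both on GRCm38.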

Additional observations from a re-analysis of the deposited data

Results flagged for a closer look

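In MEFs, 20 members differed between Actg1 KO and Actg1 locus deletion while their log2 differences against the shared wild-type libraries had opposite signs, positive in KO and negative in locus deletion. The rule asks only for the sign, and some of the negative differences did not pass, such as -0.04 for Nfkbia and -0.5 for Chil1. Between the mutants 45.2 percent of all genes passed, and the share of all genes that meet the rule was not counted. The test of the difference is limma of KO against locus deletion, adjusted over all genes. Among the chemokines, the log2 difference of KO minus locus deletion was 3.89 for Cxcl5, 3.96 for Cxcl10, 1.32 for Cxcl12, 1.15 for Cx3cl1, 2.63 for Ccl2, 3.40 for Ccl5 and 3.46 for Ccl8. Among the IL-6 family cytokines it was 5.68 for Il6, 1.35 for Il11 and 1.90 for Lif. For the NF-kappaB genes and the adhesion receptor it was 0.57 for Nfkb1, 1.25 for Nfkb2, 2.11 for Relb, 0.72 for Nfkbia, 2.23 for Birc3 and 1.15 for Vcam1. For the acute phase and complement genes it was 8.21 for Lcn2, 7.50 for Saa3, 6.21 for C3 and 10.15 for Chil1. The adjusted p of these differences was at most 0.00419 (Il11). Of these members, Cxcl5, Cxcl12, Cx3cl1, Ccl5, Nfkb1, Nfkb2, Relb, Vcam1, Lcn2 and C3 passed against wild type in both mutants. Il11 passed in locus deletion alone, and the others passed in KO alone. The signs of Il6 and Nfkbia in locus deletion changed when 1 library was left out.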

How the results depend on the processing

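The direction of every called member stayed under each alternative run, and what changed was the number past the threshold. In MEFs, KO against wild type gave 27 to 30 members and KO against locus deletion 29 to 31 with 1 library left out, against 30 and 32 with all libraries. Locus deletion against wild type, with 18, gave 11 without a trend in the moderation and 9 to 13 with 1 library left out. In ESCs, KO against wild type, with 2, gave 1 when scaled without genes over 1 percent of a library, 0 without a trend, 0 with only the libraries compared and 0 with any 1 library left out. Locus deletion against wild type in ESCs, with 6, gave 1 without a trend, 2 with only the libraries compared and 0 with any 1 left out. In MKFs, with 25, leaving out 1 library gave 10 to 13. Such fits take the spread of a group with 1 library from the other groups, and fewer of all genes passed in them as well. Without a trend, fewer of all genes passed too. In locus deletion MEFs, 727 were then higher and 1355 lower, against 2042 and 2713 with it. In KO MEFs against wild type they were 3427 and 3072, and in MKFs 3450 and 3533. In ESCs they were 98 and 54 in KO and 219 and 348 in locus deletion cells. With only the libraries compared, the ESC values were 163 and 109, and 395 and 481. The cause of changes under settings other than a left-out library was not tested.

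With a replicate block the counts were 30, 18 and 31 in the 3 MEF comparisons, 2 and 8 in ESCs and 25 in MKFs. Over all genes, the block gave 4217 higher and 3942 lower, 1767 and 2486, and 5099 and 4322 in MEFs. It gave 921 and 929, and 1784 and 1943, in ESCs, and 3696 and 3800 in MKFs. In MEFs and MKFs the labels share only numbers, and same-numbered libraries deviated with correlations of -0.302, -0.211, 0.214 and -0.0952. There the block added Cxcl10 and ended Csf1 in locus deletion MEFs, and ended Sod2 between the MEF mutants.

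Signs changed for uncalled members of locus deletion against wild type in MEFs: with 1 library left out, Il6 ran between -0.87 and 0.13, Cxcl1 between -0.076 and 0.096 and Nfkbia between -0.15 and 0.065. Over the members, 1134 values under other settings kept their side of the threshold, 40 lost it and 5 gained it, and with 1 library left out 402 kept it, 133 lost it and 1 gained it. For pathway lists the same alternatives were added after the data were seen. Without a trend, NF-kappaB components called numbered 15 against 23 in KO MEFs, 5 against 11 in locus deletion MEFs and 12 against 20 in MKFs, and receptors in locus deletion MEFs 8 against 13. With only the libraries compared, locus deletion MEFs gave 7 components against 11 and 4 interferon genes against 9, and the STAT3 list gave 0 against 1 in both of these settings. In KO ESCs the interferon list, with 1, gave 2 to 3 with a pseudocount of 5, a filter of 10, either other scaling or the block. Without a trend, the other lists of KO ESCs gave 0, and those of locus deletion ESCs 0 to 3 against 4 to 8, and with only the libraries compared 3 lists of KO ESCs gave 0 and those of locus deletion ESCs 1 to 3.

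Genes at a few reads, such as Tnf and Il33, are limited by depth.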
